A study of Mus musculus with 5 samples.

Results

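The immediate early transcription factors Egr1, Egr2, Egr3, Nr4a1, Nr4a2, Nr4a3, Fos, Fosb, Jun and Junb were examined in whole lung of 5 mouse strains. They were taken as every probe set whose only gene symbol in the platform annotation was 1 of these 10 names, which gave 20 probe sets among the 34958 with 1 symbol, and 10 genes of 18194. C57 was C57BL/6J. 4B(-/-) lacked the phosphodiesterase PDE4B and 4B(+/+) was its wild-type line. 4D(-/-) lacked PDE4D, with 4D(+/+) as its wild-type line. All 4 lines had a C57BL/6 × 129/Ola origin and at least 11 generations of backcrossing to C57BL/6J. All animals were female and naive, so none had received elastase, with ages not given in the sources used here. RNA of 3 lungs was pooled for each strain and hybridised to 1 array, so differences between strains have no replicate check, the spread between animals is unknown, and no test was made.

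Immediate early genes are transcribed within minutes of a stimulus, without new protein synthesis, and their RNA decays fast. Cyclic AMP, which PDE4 enzymes break down, is a known inducer through protein kinase A and the factor CREB, which binds cyclic AMP response elements (CREs), and growth factor and stretch signals act through the serum response factor SRF, which binds CArG boxes. Egr proteins are zinc finger factors, Nr4a proteins are nuclear receptors that act without a known natural ligand, and Fos and Jun proteins pair to form the AP-1 factor.

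Promoter sequences of members are shown because these elements are a known route from cyclic AMP to the genes. The RefSeq table for GRCm38.p6 held start sites of 8 of the 10 members, all but Egr1 and Egr3, with 12 start sites in all. The 250 bases before each start were searched on both strands. Capitals mark the CRE core TGACG, or its complement, and the CArG box.
Fos, chr12:85473640-85473889, + strand: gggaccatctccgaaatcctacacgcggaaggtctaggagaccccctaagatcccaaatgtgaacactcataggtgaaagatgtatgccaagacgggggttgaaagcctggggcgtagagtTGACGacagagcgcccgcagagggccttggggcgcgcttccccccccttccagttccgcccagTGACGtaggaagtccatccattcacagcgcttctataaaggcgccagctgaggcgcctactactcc
Nr4a1, chr15:101266596-101266845, + strand: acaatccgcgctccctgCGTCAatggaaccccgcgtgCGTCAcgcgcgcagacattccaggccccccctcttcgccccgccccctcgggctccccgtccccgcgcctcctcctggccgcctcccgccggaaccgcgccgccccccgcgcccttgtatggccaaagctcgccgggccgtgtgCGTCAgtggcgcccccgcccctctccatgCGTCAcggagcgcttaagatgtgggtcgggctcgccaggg
Nr4a2, chr2:57124004-57124253, - strand: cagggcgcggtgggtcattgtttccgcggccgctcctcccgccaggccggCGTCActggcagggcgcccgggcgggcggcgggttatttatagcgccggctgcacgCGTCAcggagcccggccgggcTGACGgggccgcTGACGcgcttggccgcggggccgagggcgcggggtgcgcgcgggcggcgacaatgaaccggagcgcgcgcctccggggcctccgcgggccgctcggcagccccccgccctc
Nr4a3, chr4:48045055-48045304, + strand: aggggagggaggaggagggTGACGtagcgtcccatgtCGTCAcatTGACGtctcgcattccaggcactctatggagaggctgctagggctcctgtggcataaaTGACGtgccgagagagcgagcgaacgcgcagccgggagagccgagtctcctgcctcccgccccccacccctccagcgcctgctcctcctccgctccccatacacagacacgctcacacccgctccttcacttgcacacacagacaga
Egr2, chr10:67537797-67537826, + strand: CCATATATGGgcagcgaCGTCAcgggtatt

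Each of the 3 Nr4a promoters held 4 CRE cores, Fos held 2, and Fosb and Junb held 1 each. The 30 bases of Egr2 above open with a CArG box followed by a CRE core. Relative to 3 of its 5 start sites this box began 72, 73 and 133 bases before the start. Another Egr2 start site had a different CArG box, also 72 bases before it, with no CRE core in its window. At least 1 CRE core was found in 7 of the 8 members, Jun being the exception, against 19.8% of all 27025 genes in the table. By promoter it was 9 of 12, against 17.8% of all 32851 promoters and 27.1% of the 9178 with at least 60% G and C. Of these 9, 3 are overlapping windows of Egr2 that hold the same CRE cores, so they are not separate sequences. Of the 12 member promoters, 9 had that base composition. The full palindrome TGACGTCA occurred in 0 of the 12 promoters and in 1.55% of all. The CArG box occurred in 4 of the 12, all of Egr2, and in 1.47% of all. In 3 of those 4 it was the same box in overlapping windows. The AP-1 site TGANTCA and the Nr4a monomer site AAAGGTCA were found in 0 of the 8, and the EGR site GCGNGGGCG in Fosb, Nr4a1 and Nr4a2. A match describes letters in this window and does not show that a factor binds there.

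Of the 10 members, 9 reached an intensity of 64, a log2 value of 6, in at least 1 array, as did 15 of their 20 probe sets and 11500 of all genes. An intensity is the brightness of a probe set on a linear scale, and values under 64 were taken as near background. Each gene was read from its brightest probe set on average, and higher or lower below means by at least 1.5-fold between 2 arrays when genes are counted. Array medians lay between 45.4 and 46.6. The 3' to 5' ratio of the Gapdh control ranged from 1.31 in 4D(+/+) to 1.77 in 4D(-/-), and that of actin from 1.62 in 4B(+/+) to 1.88 in C57. Pde4b was still detected in 4B(-/-), with its brightest probe set at 457 against 558 in 4B(+/+), and Pde4d in 4D(-/-), at 386 against 523 in 4D(+/+). With the deleted exons not given in the sources used here, these probe sets do not check the labels. Lung markers were present in every array: over 6 alveolar type 2 genes the summed intensity was 64628 to 70320, and over 8 endothelial genes 14369 to 16476. Markers of neighbouring tissues differed between pools, with a summed intensity over 9 skeletal muscle genes of 4051 in 4B(-/-), 4518 in C57, 8797 in 4B(+/+), 9160 in 4D(-/-) and 35492 in 4D(+/+).

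**Figure D1:**
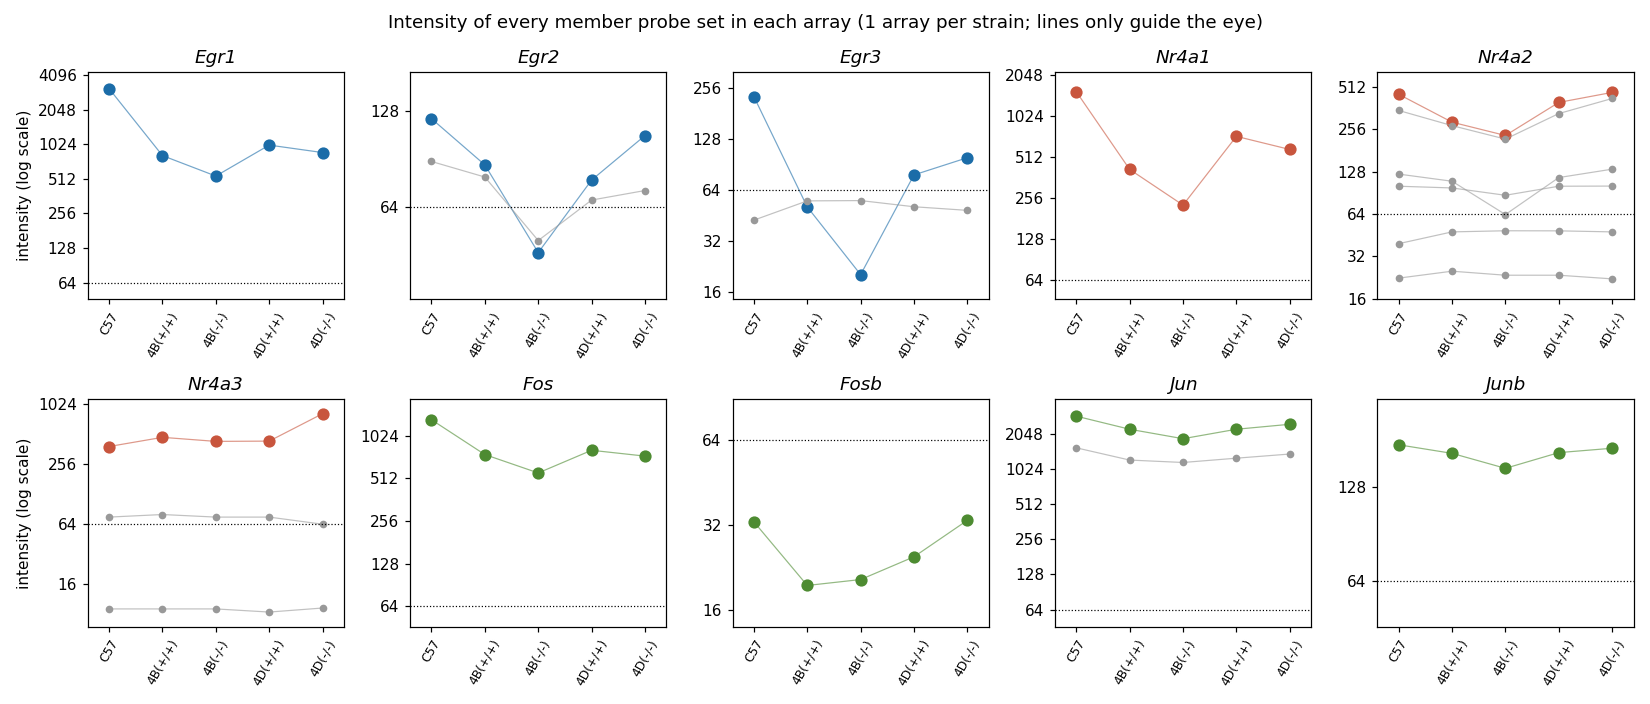
Intensity on a log scale (y axis) of each of the 20 member probe sets in the 5 arrays (x axis), 1 panel per gene. Large coloured points are the probe set that stands for the gene, small grey points its other probe sets, and the dotted line marks the floor of 64. C57 has the highest large point for Egr1, Egr2, Egr3, Nr4a1, Fos, Jun and Junb, and 4B(-/-) the lowest for those 7 and Nr4a2.

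Most members were brightest in C57 and dimmest in 4B(-/-). C57 was the highest array for 7 of the 9 members over the floor, where it was the highest for 26% of all genes. 4B(-/-) was the lowest for 8 of the 9, where it was the lowest for 18.9% of all genes. For Egr3, 1 of the 8, both 4B values were under the floor, so its lowest array is not determined. Junb lay only 1.12-fold below its next array. The exceptions at the low end and the high end lay in the Nr4a family. Nr4a3 was lowest in C57, the lowest array for 18.9% of all genes, and Nr4a2 and Nr4a3 were highest in 4D(-/-), the highest array for 17.9% of all genes. In a whole-lung pool, fewer cells of an expressing type and less RNA per cell cannot be told apart.

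Egr1, the zinc finger factor that serum, stretch and hypoxia induce in vessels and epithelium, read 3115 in C57, 815 in 4B(+/+), 541 in 4B(-/-), 1006 in 4D(+/+) and 866 in 4D(-/-). C57 stood 3.10-fold above the next array, and 4B(-/-) 1.51-fold below the next lowest. Like Egr3, Nr4a1 and Fos, Egr1 was at least 1.5-fold higher in C57 than in each other array, which 0.322% of all genes were. The 3 other arrays, those of 4B(+/+), 4D(+/+) and 4D(-/-), lay close together, between 815 and 1006. Egr1 had 1 probe set, so no other reading of the gene was at hand.

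Egr3, a close relative of Egr1 studied in neurons, muscle spindles and lymphocytes, read 227 in C57, 50.7 in 4B(+/+), 20.2 in 4B(-/-), 78.4 in 4D(+/+) and 99.0 in 4D(-/-). C57 was again alone at the top, 2.29-fold above the next array. The values of 4B(+/+) and 4B(-/-) were under the floor, so the 4.47-fold and 11.2-fold gaps to C57 are poorly determined. Set to the floor, each is 3.55-fold. A second Egr3 probe set never reached the floor, ran from 42.4 in C57 to 55.3 in 4B(-/-), and did not show this pattern.

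Egr2, a factor of Schwann cell myelination and of T-cell tolerance, read 121 in C57, 86.8 in 4B(+/+), 46.2 in 4B(-/-), 77.8 in 4D(+/+) and 107 in 4D(-/-). Its highest and lowest arrays differed by 2.62-fold, or 1.89-fold with the lowest set to the floor, and C57 stood only 1.13-fold above 4D(-/-). The other Egr2 probe set gave the same order at both ends, from 89.0 in C57 to 50.4 in 4B(-/-). Both probe sets were under the floor in 4B(-/-) alone.

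Nr4a1, the receptor also called Nur77, read 1548 in C57, 414 in 4B(+/+), 226 in 4B(-/-), 726 in 4D(+/+) and 581 in 4D(-/-). The range was 6.84-fold, with C57 2.13-fold above the next array and 4B(-/-) 1.83-fold below the next lowest. The 4B arrays were both under both 4D arrays. All values were well over the floor, and Nr4a1 had 1 probe set.

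Nr4a2, or Nurr1, known for its part in dopamine neurons and in macrophages, read 455 in C57, 288 in 4B(+/+), 232 in 4B(-/-), 399 in 4D(+/+) and 470 in 4D(-/-). Here C57 and 4D(-/-) differed by only 1.03-fold, and the 4B arrays were the low ones. Of its 6 probe sets 4 reached the floor, and all 4 were lowest in 4B(-/-) and highest in 4D(-/-). Their ranges from lowest to highest array were 2.03-fold, 1.95-fold, 2.10-fold and 1.16-fold, in order of brightness.

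Nr4a3, or NOR-1, read 383 in C57, 473 in 4B(+/+), 431 in 4B(-/-), 434 in 4D(+/+) and 815 in 4D(-/-). The array of 4D(-/-) stood 1.72-fold above the next one, and 0.183% of all genes stood at least 1.5-fold above every other array there, while the other 4 lay between 383 and 473. A second one, also over the floor, read 63.8 in 4D(-/-) against 75.2 to 79.8 elsewhere, so it was lowest where the brightest was highest. The third lay between 8.42 and 9.24. The higher Nr4a3 value in 4D(-/-) therefore rests on 1 of 3 probe sets, and where each lies on the transcript was not analysed here.

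Fos, the AP-1 subunit most used as a mark of recent cell activation, read 1334 in C57, 756 in 4B(+/+), 560 in 4B(-/-), 811 in 4D(+/+) and 737 in 4D(-/-). C57 lay 1.64-fold above the next array, and the 3 arrays other than C57 and 4B(-/-) were within 737 to 811. Fosb, its relative, was below the floor in all 5 arrays, at 19.6 to 33.3, and no difference was drawn from it.

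Jun, the partner of Fos, read 2904 in C57, 2244 in 4B(+/+), 1862 in 4B(-/-), 2244 in 4D(+/+) and 2475 in 4D(-/-). Its other probe set was also highest in C57, at 1556, and lowest in 4B(-/-), at 1165. Junb, an AP-1 subunit that can oppose Jun, varied least of the 9, from 147 in 4B(-/-) to 175 in C57, a range of 1.19-fold. The AP-1 genes thus kept the order of the arrays seen for Egr1 at both ends, over smaller ranges.

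**Figure D2:**
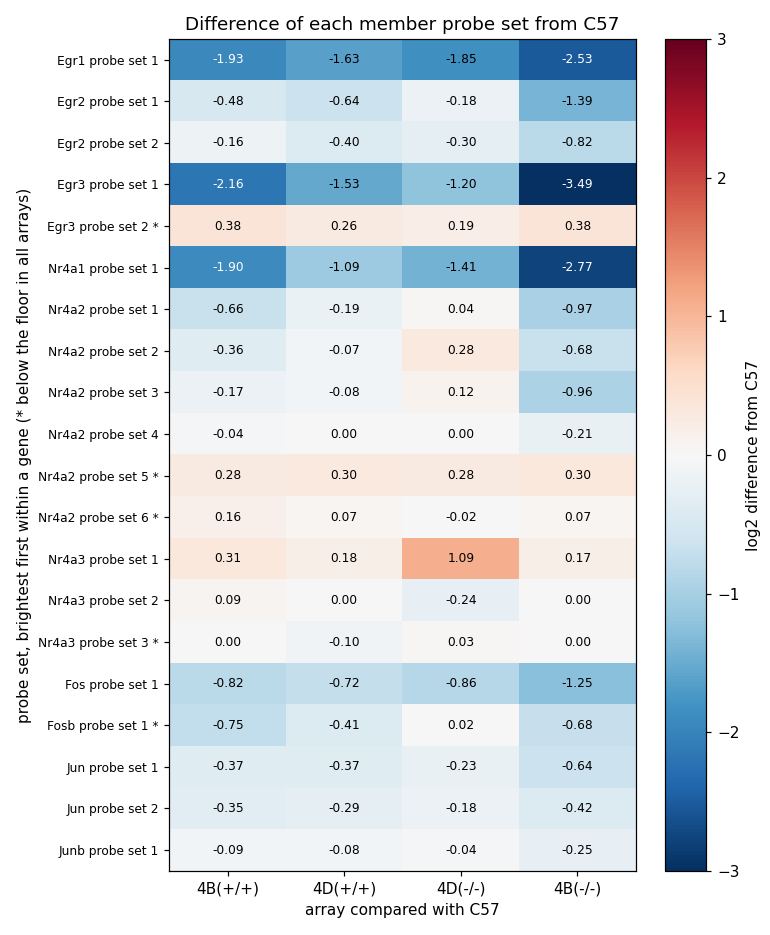
Log2 difference from C57 (colour and printed value) for all 20 member probe sets (rows, brightest first within a gene) in the other 4 arrays (columns). Probe sets marked with a star were below an intensity of 64 in every array. In 4B(-/-) Nr4a1 is at -2.77 and Egr1 at -2.53, while the -3.49 of Egr3 rests on a value under the floor and is -1.83 with that value set to 64. Upward, 1 Nr4a3 probe set stands out in 4D(-/-), at 1.09.

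How the members stood in backcrossed animals without a knockout was read from 4B(+/+) and 4D(+/+) against C57. In 4B(+/+), 5 of 9 members were lower by at least 1.5-fold and 0 higher, against 1.33% and 2.23% of all genes. Egr1 and Nr4a1 held ranks 4 and 5 among the falls of 11500 genes, at log2 differences of -1.93 and -1.90. Egr3, under the floor in 4B(+/+), differed by -1.83 on the log2 scale when set to the floor. Fos was 1.76-fold and Nr4a2 1.58-fold lower, while Egr2 (1.39-fold), Jun (1.29-fold) and Junb (1.07-fold) were lower by less than the threshold. The other Nr4a2 probe sets over the floor were lower by only 1.28-fold, 1.12-fold and 1.03-fold. Nr4a3 was 1.24-fold higher. The median over the 9 members was -0.66, beside 0 over all genes.

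In 4D(+/+), 5 of 9 members were lower than in C57 and 0 higher, against 1.24% and 4.25% of all genes, with a median of -0.64. Egr1 was 3.10-fold, Egr3 2.90-fold, Nr4a1 2.13-fold, Fos 1.64-fold and Egr2 1.55-fold lower. The other Egr2 probe set was 1.32-fold lower, under the threshold. Nr4a2 was lower by only 1.14-fold. The same C57 array served as reference here and for 4B(+/+), so the 2 sets of falls are not separate evidence. With the mean of C57 and the other line's wild type as reference, 3 members were lower in 4B(+/+), against 0.557% of all genes, and 1, Egr1, in 4D(+/+), against 0.243%.

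Between the wild-type lines themselves, a comparison added after the values were seen, Nr4a1 was 1.75-fold and Egr3 1.55-fold lower in 4B(+/+) than in 4D(+/+). The other 7 members lay within 1.5-fold. Of all genes 1.57% were lower and 0.348% higher by that much. Jun had exactly the same value in both arrays. Set to the floor in 4B(+/+), the Egr3 gap is 1.22-fold.

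Against its own wild-type line, 4B(-/-) was lower for 4 of the 9 members over the floor by a gap that passed 1.5-fold, against 0.93% of all genes. No member was higher, where 0.383% of all genes were. Nr4a1 was 1.83-fold and Egr1 1.51-fold lower. Egr2 was 1.88-fold lower, or 1.36-fold at the floor, and Egr3 2.51-fold, with no fold left at the floor. Fos was 1.35-fold, Nr4a2 1.24-fold, Jun 1.21-fold, Junb 1.12-fold and Nr4a3 1.10-fold lower, none of which passed. The median was -0.43, beside 0.01 over all genes. The Egr3 values were both under the floor and the Egr2 value of 4B(-/-) was too. With intensities under 64 set to 64, 2 members passed, Nr4a1 and Egr1, against 0.661% of all genes, and Egr1 lay just past the threshold.

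For Egr1 and Nr4a1 the low position of 4B(-/-) did not depend on which array it was set against. Egr1, Egr2, Egr3 and Nr4a1 were at least 1.5-fold below every one of the other 4 arrays in 4B(-/-), a pattern shown by 0.339% of all genes, and one looked for after the values were seen. With values under 64 set to 64, Egr1 and Nr4a1 still show it, while Egr2 and Egr3 do not. Below the range of the 3 wild-type arrays lay 8 of the 9 members, where 20.9% of all genes did. Egr3 is 1 of these 8, and set to the floor it ties with 4B(+/+). With C57 left out and the mean of 4B(+/+) and 4D(+/+) as reference, 4 members were lower by 1.5-fold, against 1.4% of all genes. Egr2 and Egr3 were among the 4, with 4B(-/-) values under the floor, and this count was not redone at the floor. The median was -0.55. Against C57, 7 of 9 members were lower, against 3.57% of all genes, from Nr4a1 at 6.84-fold and Egr1 at 5.76-fold to Jun at 1.56-fold. The other Jun probe set was 1.34-fold lower there, under the threshold. The median of that comparison was -1.25, and 0 were higher, where 2.53% of all genes were.

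Against its own wild-type line, 4D(-/-) showed no fall past 1.5-fold among the 9 members, while 4.53% of all genes were lower, and 1 member was higher, against 1.1% of all genes. That member was Nr4a3, 1.88-fold higher at rank 29 of the rises. Egr2 was 1.38-fold, Egr3 1.26-fold and Nr4a2 1.18-fold higher, and Nr4a1 1.25-fold and Egr1 1.16-fold lower. The median was 0.14, beside 0 over all genes. Of the 9 members, 6 lay inside the range of the 3 wild-type arrays, where 47.7% of all genes did. Nr4a3 and Nr4a2 were above that range and Fos was just below it.

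Against C57, 4D(-/-) was lower for Egr1 (3.60-fold), Nr4a1 (2.66-fold), Egr3 (2.29-fold) and Fos (1.81-fold), where 0.791% of all genes were lower. Nr4a3 was 2.13-fold higher, where 1.37% of all genes were. The fall of Egr1 held rank 2 among 11500 genes. Those of Egr2 (1.13-fold) and Jun (1.17-fold) did not pass, and the median was -0.23.

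The 2 knockouts were also set side by side, after the values were seen. In 4B(-/-) 6 of the 9 members were lower than in 4D(-/-) by at least 1.5-fold and 0 higher, against 2.8% and 2.97% of all genes. Egr3 was 4.90-fold, Nr4a1 2.57-fold, Egr2 2.32-fold, Nr4a2 2.03-fold, Nr4a3 1.89-fold and Egr1 1.60-fold lower. Set to the floor in 4B(-/-), the Egr3 gap is 1.55-fold and that of Egr2 1.67-fold. The other Egr2 probe set was 1.43-fold lower in 4B(-/-), and the second Nr4a3 probe set over the floor was 1.18-fold higher there. Fos, Jun and Junb were within 1.32-fold, 1.33-fold and 1.16-fold.

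**Figure D3:**
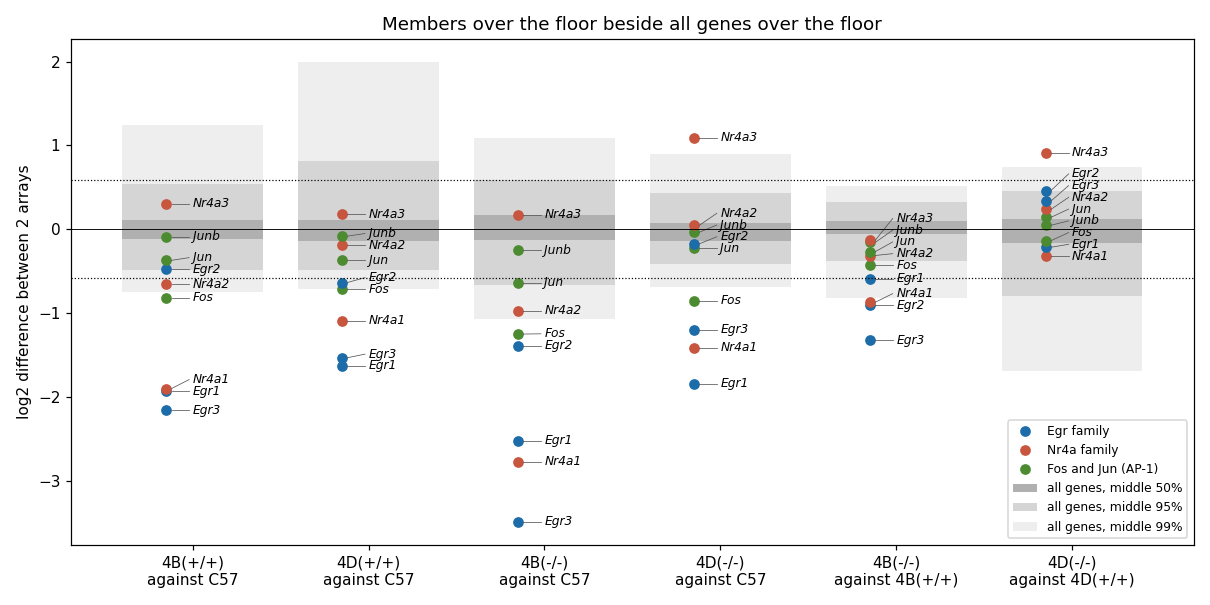
Log2 difference (y axis) of the 9 members over the floor in 6 comparisons (x axis), coloured by family, over grey bands that hold the middle 50%, 95% and 99% of the 11500 genes. Dotted lines mark 1.5-fold. In the 4 comparisons with C57, Egr1, Egr3, Nr4a1 and Fos lie under the band of 99%, and in 4D(-/-) against 4D(+/+) only Nr4a3 lies outside it, on the upper side.

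Other immediate early genes were followed to see how far the pattern went beyond the 10 members. Of 20 other immediate early factors over the floor, 0 were lower in 4B(+/+) or 4D(+/+) than in C57. In 4B(-/-) against C57, 4 were lower, with a median of -0.19. These were Atf3, a stress-induced factor (1.13 lower on the log2 scale, from 291 to 133), Klf2 of endothelial shear response (3388 to 2092), Klf4 (3516 to 2312) and Bhlhe40 (648 to 405). Atf3 was the only 1 of the 20 called in 4B(-/-) against 4B(+/+), at -0.69, and it was also lower in 4D(-/-) than in 4D(+/+), at -0.60. Csrnp1 was 0.69 higher in the latter comparison. Nfil3, a clock-linked repressor, read 64.9 in C57 against 128 to 154 elsewhere.

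Immediate early genes that are not transcription factors showed falls from C57 more than differences within a line. Of 25 over the floor, 5 fell short of C57 by 1.5-fold in 4B(+/+), 3 in 4D(+/+), 6 in 4B(-/-) and 4 in 4D(-/-). Gadd45g was the 1 gene higher in each. Ccn1, a matrix protein induced by stretch and serum, read 1947 in C57, 658 in 4B(+/+), 589 in 4B(-/-), 837 in 4D(+/+) and 544 in 4D(-/-). Rgs2, which dampens G protein signals, read 1283 in C57 and 786 to 842 elsewhere. Plk2 read 1015 in C57 and 582 to 655 elsewhere. Ptgs2, the inducible cyclooxygenase, followed Nr4a2 in its order, with 390 in C57, 234 in 4B(+/+), 180 in 4B(-/-), 313 in 4D(+/+) and 426 in 4D(-/-). Between 4B(-/-) and 4B(+/+) 0 of the 25 passed 1.5-fold, and between 4D(-/-) and 4D(+/+) 1 did, Ccn1 at -0.62.

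Feedback inhibitors of the same pathways were also read. Of 18 over the floor, 2 were lower in 4B(+/+), 1 in 4D(+/+) and 3 in 4B(-/-) than in C57. Zfp36, which speeds decay of immediate early RNA, read 764 in C57, 493 in 4B(+/+), 398 in 4B(-/-), 480 in 4D(+/+) and 594 in 4D(-/-). Dusp1, a phosphatase that turns off MAP kinases, read 6071 in C57 and 3651 in 4B(-/-), with 4392 to 5049 in the rest. In 4D(-/-) against 4D(+/+), 2 were higher, Socs3 by 0.75 and Spry4 by 0.65 on the log2 scale. Between 4B(-/-) and 4B(+/+) 0 of the 18 passed.

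Genes with a known cyclic AMP response that are not members did not share 1 direction. Of 9 over the floor, which include the targeted genes Pde4b and Pde4d, 2 were higher and 2 lower in 4B(+/+) than in C57. In 4B(-/-) these counts were 2 and 3. The higher ones were Crem and Pck1 in both. Sik1, a kinase that restrains CREB coactivators, read 530 in C57, 317 in 4B(+/+), 263 in 4B(-/-), 296 in 4D(+/+) and 362 in 4D(-/-). Per1, a CREB target that is also a clock gene, read 772 in C57, 466 in 4B(+/+), 390 in 4B(-/-), 462 in 4D(+/+) and 565 in 4D(-/-). Both were thus highest in C57 and lowest in 4B(-/-). Crem, whose cyclic AMP-induced form represses CREB targets, went the other way, with 138 in C57 against 225 to 261 elsewhere. Pck1 read 285 in C57, 848 in 4B(+/+), 511 in 4B(-/-), 566 in 4D(+/+) and 182 in 4D(-/-). It was the 1 of the 9 that was lower in 4B(-/-) than in 4B(+/+). It was also the 1 lower in 4D(-/-) than in 4D(+/+), by 3.11-fold. The adipose gene Adipoq read 615, 1952, 1689, 2065 and 468 in the same order of arrays. The part of adipose tissue in the Pck1 values was not tested.

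The factors and kinases that act upstream varied little. Of 23 over the floor, only Crem was higher in each line than in C57, and Mef2c was lower in 4B(-/-), at 275 against 490. Between each knockout and its wild-type line 0 of the 23 passed 1.5-fold. The median was 0.01 for 4B(-/-) and 0.15 for 4D(-/-).

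Clock, heat shock and glucocorticoid-responsive genes are given beside the members, and some of them also stand in the lists above. The clock list had 17 measurable genes, and relative to C57 the lower ones numbered 10 in 4B(+/+), 9 in 4D(+/+), 9 in 4B(-/-) and 8 in 4D(-/-), beside 3 higher ones in each. Their medians lay between -0.71 and -0.45. Within the lines 0 of the 17 passed 1.5-fold in either knockout comparison, with medians of -0.10 and 0.02. Of all genes, 0.93% were lower and 0.383% higher by 1.5-fold in 4B(-/-) against 4B(+/+). In 4D(-/-) against 4D(+/+) 4.53% were lower and 1.1% higher. The part of clock phase in the members' values was not tested.

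Heat shock genes stood on the opposite side. Of 13, 6 were higher in 4B(+/+) than in C57, 7 in 4D(+/+), 4 in 4B(-/-) and 4 in 4D(-/-), with 0 lower in any. Hspa1a read 578 in C57, 1313 in 4B(+/+), 705 in 4B(-/-), 948 in 4D(+/+) and 936 in 4D(-/-), so that 4B(-/-) lay below 4B(+/+) for this gene. Hspa1b did the same, with 4493 in 4B(+/+) and 2339 in 4B(-/-). These were the only 2 of the 13 to pass 1.5-fold between 4B(-/-) and 4B(+/+). The median over the 13 was -0.13, and Hspe1 was 0.28 higher on the log2 scale. Among 10 glucocorticoid-responsive genes, 2 were higher and 1 lower in 4B(+/+) than in C57. These counts were 3 and 2 in 4D(+/+), 3 and 2 in 4B(-/-), and 3 and 0 in 4D(-/-). In 4D(-/-) 4 of the 10 were higher than in 4D(+/+), and Fkbp5 was at 465 against 196. In 4B(-/-) against 4B(+/+), 2 were higher, Zbtb16 at 1118 against 592 and Fkbp5 at 521 against 321. The part of these groups in the result was not tested.

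Cell markers gave the following values beside the members. The summed intensity over 7 thymus and T-cell genes was 1553 in 4B(-/-) against 639 to 818 elsewhere. Over 8 cartilage genes it was 447 in C57 and 1037 to 1853 in the others. Of 5 B-cell genes 4 passed the floor, Cd79a being below it throughout, and relative to C57 3 were lower in 4B(+/+), 3 in 4D(+/+), 4 in 4B(-/-) and 0 in 4D(-/-). Of 7 alveolar macrophage genes, 3 were higher in 4D(-/-) than in 4D(+/+), Marco by 2.66-fold, Fabp1 by 1.74-fold and Chil3 by 1.55-fold, and 3 were lower in 4B(-/-) than in 4D(-/-). Of 4 adipose genes over the floor, 4 were higher in 4B(+/+), 3 in 4D(+/+) and 2 in 4B(-/-) than in C57, and 4 were lower in 4D(-/-) than in 4D(+/+). Of 5 neutrophil genes, Ngp and Camp were below the floor throughout. The 3 over it, S100a8, S100a9 and Ltf, were higher in 4B(+/+) and 4D(+/+) than in C57 and lower in 4D(-/-) than in 4D(+/+). Of 6 alveolar type 1 genes Akap5 was lower in 4B(+/+), 4D(+/+) and 4B(-/-) than in C57, and of 6 fibroblast genes Col1a1 was higher in 4D(-/-) than in C57 and 4D(+/+). Of 8 endothelial, 6 alveolar type 2, 5 smooth muscle and 6 club and ciliated genes, 0 passed 1.5-fold in any of the 6 comparisons with C57 or within a line. The part of cell makeup in the members' values was not tested.

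**Figure D4:**
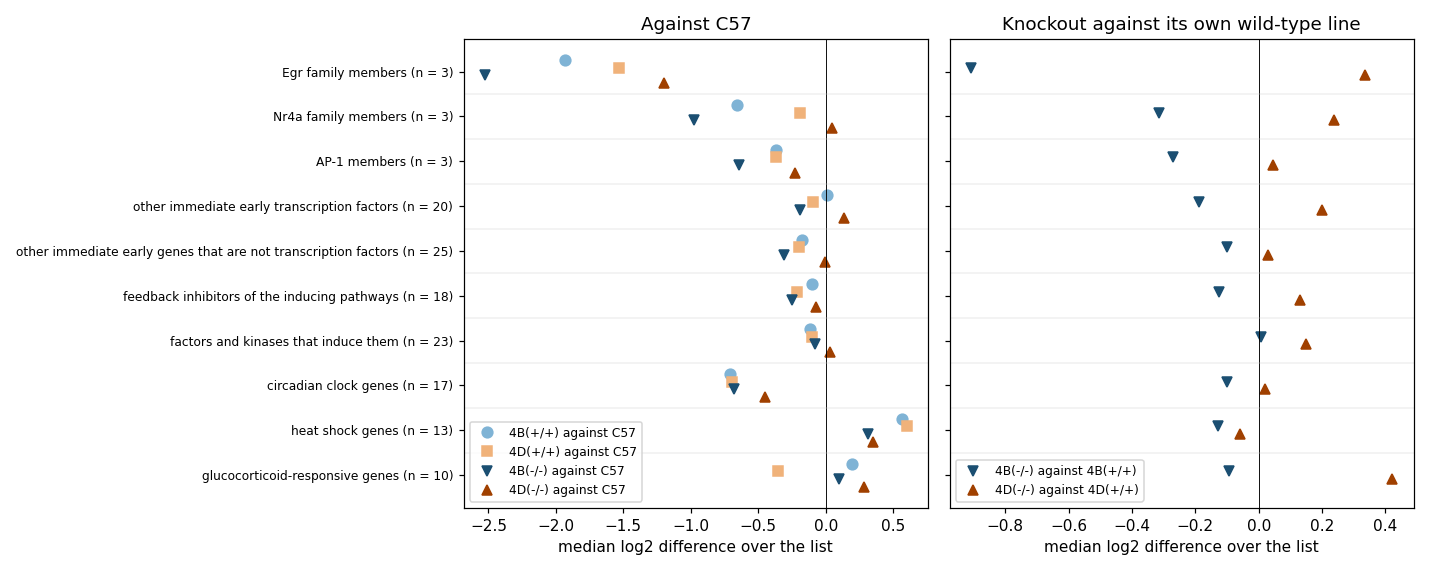
Median log2 difference (x axis) of the 3 member families and of 7 other gene lists (rows, with the number of genes over the floor) against C57 (left) and for each knockout against its own wild-type line (right). The Egr family, with Egr2 and Egr3 under the floor in 4B(-/-), is at -2.53 there against C57 and at -0.91 against 4B(+/+), and at 0.34 for 4D(-/-) against 4D(+/+). With values under 64 set to 64 these Egr medians for 4B(-/-) are -1.83 and -0.44. The clock list lies at -0.71 to -0.45 against C57, and at -0.10 and 0.02 within the lines.

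The genes outside the member list whose values over the 5 arrays ran closest to Egr1 were found by the root mean square distance between log2 values, each centred on its own mean. Over 5 arrays the nearest were the clock genes Per3 (distance 0.21), Per2 (0.27) and Hlf (0.29), then Ccn1 (0.30), Prdm8 (0.32), Mmp12 (0.36), the clock gene Nr1d2 (0.39) and Zc3h6 (0.40). Prdm8 and Zc3h6 were under the floor in all 4 arrays other than C57 and Mmp12 in 3 of them, so their distances rest on values near background. The median distance over all genes was 0.85. Among members Nr4a1 was nearest, at 0.29 and rank 4 of all genes, followed by Fos at 0.45, Egr3 at 0.52 and Egr2 at 0.58. Nr4a3 was farthest, at 1.04. The high C57 value dominates the Egr1 profile. Per3, which read 385 in C57, varied only from 92.1 to 111 in the other 4 arrays, where Egr1 varied from 541 to 1006.

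**Figure D5:**
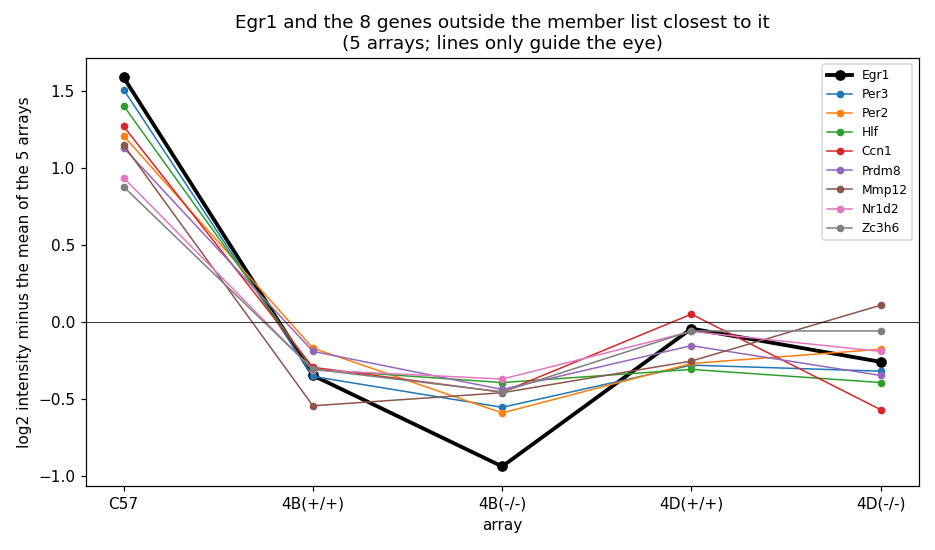
Log2 intensity minus the mean of the 5 arrays (y axis) for Egr1 (thick black line) and the 8 closest genes that are not members, by array (x axis). All 9 are highest in C57, and Egr1 falls lower than the other 8 in 4B(-/-).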

How the data were processed

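Gene expression was measured on 1 array per strain from pooled lung RNA. The authors deposited linear intensities made with RMA, per the submitters' processing notes, with settings and genome build not given in the sources used here. RMA equalises the distributions of arrays, and 59.7% of probe sets held the same value in at least 2 arrays. As deposited, 431 probe sets, Junb's among them, had intensities with 1 decimal and the rest more. Of these, 367 stood first in the deposited order. Counting only probe sets over the floor, the median range over the arrays was 0.24 (log2) in this first run. In the 367 probe sets of any kind that follow it, the median range was 0.27. Intensities were converted to log2 with Python 3.11.15 and pandas 2.3.3. The annotation paired 34958 probe sets with a single symbol, 932 with more and 9211 with no symbol, and the single ones were used. Cyclic loess was run with limma 3.58.1. The scripts that call differences were tested on simulated data. All 10 members were named, of each list up to 4 genes with the largest difference, and the 8 genes closest to Egr1. Rgs2, Dusp1, Klf2, Klf4, Bhlhe40, Hspa1b and other list genes beyond that rule were picked after their values were seen. Members and lists were chosen with earlier results of these data known. Alternatives covered probe set, normalization, floor, fold and reference. The reference without C57, the setting of values under 64 to 64, the comparisons of the wild-type lines and of the knockouts with each other, and counts against every other array were chosen once the data had been seen. The number of arrays limits the precision.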

Additional observations from a re-analysis of the deposited data

Results flagged for a closer look

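For 3 members the knockout differences of the 2 lines pointed in opposite directions and were at least 1 apart on the log2 scale as measured, 1 of which, Nr4a3, has no value under the floor. With 1 array per strain these differences were not tested. As measured, Egr3 differed by -1.33 in 4B(-/-) against 4B(+/+) and by 0.34 in 4D(-/-) against 4D(+/+), a distance of 1.66. Both 4B values lay under the floor, and set to it they leave no 4B difference and a distance of 0.34, so no opposite direction is established for Egr3. Egr2 fell by 0.91 in the PDE4B comparison and was 0.46 higher in the PDE4D comparison, a distance of 1.37. Its 4B(-/-) value was under the floor, and set to it the fall is -0.44 and the distance 0.90, which is less than 1. Nr4a3 differed by -0.13 and 0.91, a distance of 1.05, and its second probe set over the floor did not show the higher value in 4D(-/-).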

How the results depend on the processing

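Of 212 counts and medians recomputed under 12 alternatives, 192 stayed within 1.5 times the count or 0.2 of the median, and of 498 values of single members 441 moved by less than 0.2 (log2) and 3 reversed. No paired analysis was possible because each strain had 1 array. With the mean of the wild types as reference, the median was -0.74 for 4B(-/-), -0.19 for 4D(+/+) and 0.021 for 4D(-/-), where Egr3 read 0.035 in place of its fall from C57. In that setting 3 members were lower in 4B(+/+), 1 in 4D(+/+) and 1 in 4D(-/-), against 0.557%, 0.243% and 1.03% of all genes. With each gene read as the median over its probe sets, Nr4a3 in 4D(-/-) was at -0.24 against both 4D(+/+) and C57. There 0 members were higher, against 0.938% and 1.28% of all genes, and the median of 4B(+/+) was -0.36. At 2-fold, 3 members were lower in 4B(+/+) and 3 in 4D(+/+) than in C57, against 0.209% and 0.183% of all genes. Against 4B(+/+), 1 was lower in 4B(-/-), where 0.304% of all genes were. In 4D(-/-) 0 were higher than in 4D(+/+), where 0.209% of all genes were. The 1 in 4B(-/-) was Egr3, with both values under the floor, and at the floor the count is 0. At 1.3-fold 2 were higher in 4D(-/-) than in 4D(+/+), Egr2 and Nr4a3, against 4.24% of all genes. At 1.5-fold, with C57 left out of the reference, 2 were also higher, against 0.8%. Egr3, at 0.65, was 1 of the latter, and its 4B(+/+) value in that reference was under the floor. With intensities under 64 set to 64, 2 members were lower in 4B(-/-) than in 4B(+/+), against 0.661% of all genes, and the median against C57 was -0.97. A floor of log2 7 gave -0.54 for 4D(-/-) against C57. The cause of these shifts was not tested beyond what each setting changes. Egr2 and Egr3 are limited by signal close to background in the 4B arrays, and all results by 1 pool per strain.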
